A study of Arabidopsis thaliana and Hordeum vulgare and Setaria italica with 13 samples.

Results

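Full-length mature tRNAs of maize (Zea mays) were compared, sequence by sequence, with those of foxtail millet (Setaria italica), 2 panicoid grasses. Every entry of the maize library and every entry of the foxtail millet library was used, and a sequence counted as shared where the letters were identical from the first base to the CCA end. The maize library listed 72 sequences and the millet library 80, which made 121 distinct sequences of the 388 in the 5 libraries of this assay. Both samples were seedlings collected at 10 days, raised in soil at 23 ºC under 16 h of light and 8 h of darkness. No transgene, mutant allele or treatment is given in the labels for either species, and cultivars are not named. The series as a whole profiled tRNAs of several plants with this assay, YAMAT-seq, and with a small RNA method, tRNA-seq. In YAMAT-seq a Y-shaped adapter is ligated to both ends of a folded tRNA through the unpaired CCA tail, so that intact mature molecules are selected.

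A tRNA carries 1 amino acid and reads codons through the 3 bases of its anticodon, which sit in the middle of the 7-base anticodon loop. tRNAs with the same anticodon form a family, named by the amino acid with the anticodon after it (GlyGCC, with T for U), and tRNAs that share the anticodon but differ elsewhere in the body are isodecoders. Plant cells draw tRNAs from the nuclear, the plastid and the mitochondrial genome, and the mitochondrial genome of grasses holds tRNA genes of plastid origin as well as its own. In green seedlings the plastid set serves the translation of photosynthesis proteins, while the nuclear set serves the cytosol.

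Each species had 1 library, so a difference between them has no replicate check and no p-value is given. The maize library held 19833183 reads and the foxtail millet library 6851530, so the maize total was 2.89 times the millet one. Shares are percentages of these totals, ratios are the maize share over the millet share, and intervals are exact Clopper-Pearson 95% intervals that cover counting error only. At this depth 3 reads made 1.51e-05% of the maize library and 4.38e-05% of the millet library. Counts under 10 reads were mostly even numbers, 25 of 28 such entries in maize and 22 of 26 in millet, and no direction is drawn for a sequence that is under 10 reads in both. Of the entries with at least 100 reads, 17 of 30 in maize and 14 of 29 in millet were even. If some fragments entered low counts as 2 reads, which was not tested, intervals and 3-read floors are too narrow for them. An unlisted sequence had no reads or was not among the reference tRNAs that reads were matched to, and those sets are not described in the sources used here.

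A few sequences carried most of both libraries, and they are shown first with the anticodon in capitals. The first 2 lines are identical in maize and millet, and the third line was listed in millet only.
Zmays_tR136 and Sitalica_tR130, GlyGCC: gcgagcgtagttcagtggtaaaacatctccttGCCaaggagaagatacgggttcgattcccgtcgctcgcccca
Zmays_tR235 and Sitalica_tR31, AspGTC: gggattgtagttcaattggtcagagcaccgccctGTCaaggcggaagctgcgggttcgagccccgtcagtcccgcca
Sitalica_tR40, GlnTTG: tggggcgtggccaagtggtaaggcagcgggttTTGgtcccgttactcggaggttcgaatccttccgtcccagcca
The GluCTC isodecoders are shown next because the 2 species shared none of them. The first line has the anticodon in capitals, and in the lines after it the capitals mark the bases that differ from it.
Sitalica_tR104, GluCTC: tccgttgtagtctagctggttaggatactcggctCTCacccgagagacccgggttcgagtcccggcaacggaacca
Zmays_tR297, GluCTC: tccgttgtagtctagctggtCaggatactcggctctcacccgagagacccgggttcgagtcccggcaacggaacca
Zmays_tR6, GluCTC: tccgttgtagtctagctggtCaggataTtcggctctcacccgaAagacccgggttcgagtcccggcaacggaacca
Zmays_tR316, GluCTC: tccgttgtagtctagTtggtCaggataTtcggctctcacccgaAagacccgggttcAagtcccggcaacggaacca
Zmays_tR178, GluCTC: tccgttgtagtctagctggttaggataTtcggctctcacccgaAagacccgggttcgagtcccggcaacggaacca
Nuclear-type AspGTC is shown as a family with 1 shared sequence and minor isodecoders in each species. The first line was listed in both, and capitals in the later lines mark bases that differ from it.
Zmays_tR291 and Sitalica_tR80, AspGTC: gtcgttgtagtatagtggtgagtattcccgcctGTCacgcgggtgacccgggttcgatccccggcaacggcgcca
Zmays_tR179, AspGTC: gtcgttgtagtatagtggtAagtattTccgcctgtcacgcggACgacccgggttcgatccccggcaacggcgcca
Sitalica_tR42, AspGTC: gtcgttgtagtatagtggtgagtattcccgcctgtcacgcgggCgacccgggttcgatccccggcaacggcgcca
Sitalica_tR33, AspGTC: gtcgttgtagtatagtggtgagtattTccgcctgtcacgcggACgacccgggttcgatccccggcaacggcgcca

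The mature tRNA pools of maize and foxtail millet shared their largest molecule, GlyGCC, and most of the distinct sequences were rare. Identical sequences numbered 31, which is 43.1% of the maize entries and 38.8% of the millet entries. They held 99.9% of maize reads (99.8987 to 99.9015) and 93.2% of millet reads (93.1593 to 93.1971). With GlyGCC taken out of both totals they held 98.1% of the rest in maize and 34.9% in millet. The 41 sequences listed in maize only added up to 19809 reads, or 0.0999%, while the 49 listed in millet only held 467397 reads, or 6.82%. Almost all of that millet share was 1 sequence, the GlnTTG tRNA printed above, with 449124 reads. In maize 24 of the 41 had under 10 reads, and in millet 23 of the 49 did.

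Both libraries were concentrated, and fewer sequences made up most of the maize reads. A single sequence, the GlyGCC leader, passed 90% of maize reads, against 2 sequences in millet. The second in millet was the GlnTTG tRNA, perhaps not among the maize reference tRNAs, so the contrast at 90% rests on it. It took 3 sequences to reach 99% in maize and 5 in millet, and 8 in maize and 12 in millet to reach 99.9%. Families numbered 26 in maize and 34 in millet, with 24 in common. The 2 families listed in maize only, LysTTT and AlaAGC, held 10 reads together, and the 10 listed in millet only held 164.

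**Figure D1:**
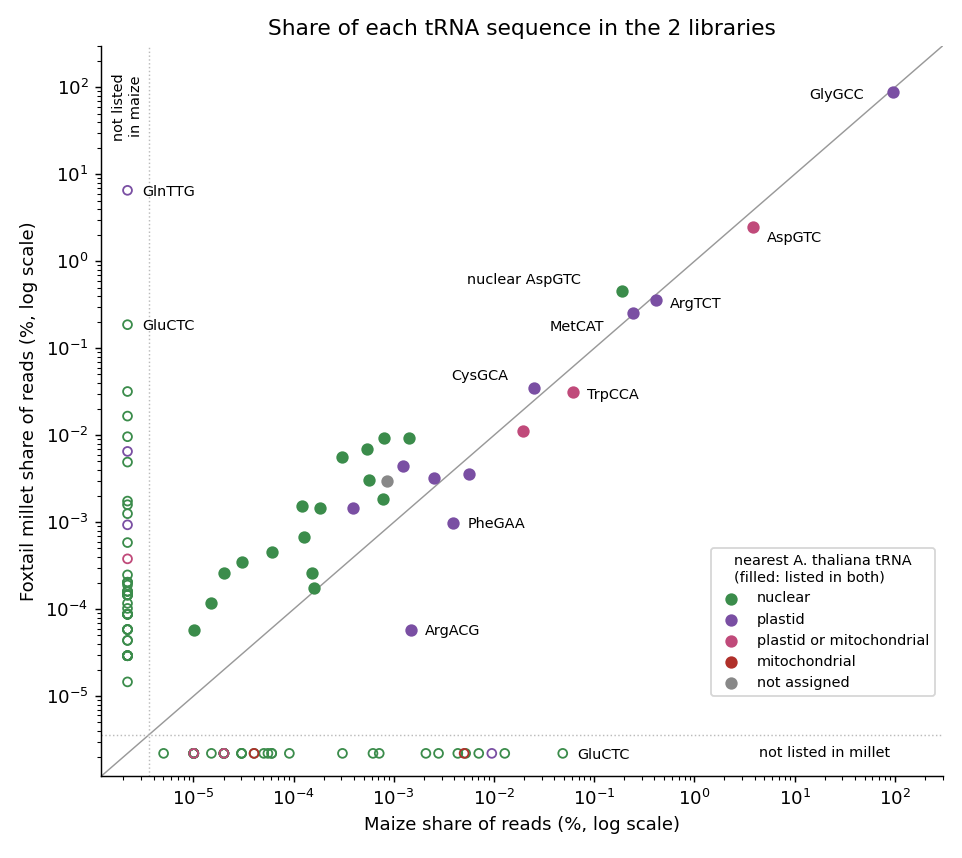
Share of reads (percent, log scale) of each of the 121 sequences in the maize library (x axis) against the foxtail millet library (y axis), coloured by the nearest A. thaliana tRNA; filled points are the 31 identical sequences, and open points beyond the dotted lines were listed in 1 species only. GlyGCC stands at the top right at 95.1% in maize and 89.5% in millet, and the GlnTTG point at 6.56% of millet reads has no maize counterpart.

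Sequences were sorted by the A. thaliana tRNA in the TAIR10.1 genome that they most resemble (plastid, mitochondrial or nuclear), counted in edits, where an edit is 1 substitution, insertion or deletion. Plastid-type sequences held 95.8% of maize reads and 96.7% of millet reads. Sequences set apart from nuclear tRNAs but not by 5 edits between plastid and mitochondrial ones, called plastid-or-mitochondrial, held 3.89% of maize reads and 2.50% of millet reads. Nuclear-type sequences held 0.282% of maize reads (55914 reads) and 0.759% of millet reads (51986 reads). They were the most diverse class by far, with 98 of the 121 sequences, 53 of them in maize and 62 in millet. Mitochondrial-type sequences were listed in maize only, 2 sequences with 1007 reads. Fewer plastids or green cells in a seedling and less tRNA per plastid cannot be told apart in whole seedlings, and no maize or millet genome was used, so the classes rest on likeness to A. thaliana.

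Among plastid-type tRNAs, GlyGCC, which reads glycine codons ending in C or U, was the largest family in both species. The shared leader printed above had 18864878 reads in maize and 6133365 in millet. That was 95.1% of the maize library and 89.5% of the millet library, a ratio of 1.06. The millet total includes the GlnTTG sequence listed in millet only, and the ratio depends on it, so no direction is given. The GlyGCC leader was 15 edits from the nearest plastid tRNA of A. thaliana, 22 from the nearest mitochondrial and 23 from the nearest nuclear one. Its plastid class thus lies just inside the limit of 16 edits. The sequence was not listed in barley, wheat or A. thaliana. The barley leader, with 9933550 reads, differed from it by G15A and T63C, and the wheat leader, with 8875264 reads, by G15A, C24T and T63C. Positions here and below are counted from 1 at the 5′ end of the tRNA, with the base of the maize and millet sequence first in these 2 comparisons.

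Each library also listed a GlyGCC sequence 1 substitution away from this leader. In maize it was Zmays_tR218 (G49A from the leader) with 1888 reads, or 0.0100% of the GlyGCC reads. In millet it was Sitalica_tR129 (G55A from the leader) with 447 reads, or 0.00729% of the GlyGCC reads. The 2 near copies are at different positions, in the T stem in maize and in the T loop in millet, and whether they are molecules of their own was not tested.

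GlnTTG, a glutamine tRNA, showed the widest gap between the species. The family had 487 reads in maize (0.00246%) and 449866 in millet (6.57%), so its share was 2674 times higher in millet. In millet 449124 of these reads were the plastid-type sequence Sitalica_tR40, 5 edits from the A. thaliana plastid tRNA. Sitalica_tR40 was also listed in barley with 1838651 reads (14.1%) and in wheat with 1030775 reads (9.80%). In maize no listed sequence came close to it, the nearest being 26 edits away and a CysGCA tRNA. The maize floor of 3 reads is 1.51e-05%, which applies only if the sequence was among the maize reference tRNAs.

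The tRNA-seq values of the series, which are deposited as percentages per anticodon with no sequence and no depth, ran the other way for this family. GlnTTG was 7.96% of maize tRNA-seq and 1.94% of millet tRNA-seq, and these values do not separate plastid from nuclear GlnTTG. GlyGCC was 2.82% of maize and 2.95% of millet tRNA-seq, far below its YAMAT-seq shares in both species. AspGTC, which as a family was higher in maize in YAMAT-seq, was 7.42% of maize and 1.30% of millet tRNA-seq. These values do not separate its organelle and nuclear-type forms either. Nuclear-type AspGTC had the lower YAMAT-seq share in maize, 0.197% against 0.507% in millet.

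Of the next plastid-type tRNAs, ArgTCT and MetCAT were abundant and close in share of the whole library, while PheGAA and ArgACG were scarce and differed more. All 4 are printed with the anticodon in capitals because the maize and millet molecules are the same and only the read share differs.
Zmays_tR317 and Sitalica_tR103, ArgTCT: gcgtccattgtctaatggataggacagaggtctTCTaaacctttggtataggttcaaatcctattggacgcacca
Zmays_tR13 and Sitalica_tR11, MetCAT: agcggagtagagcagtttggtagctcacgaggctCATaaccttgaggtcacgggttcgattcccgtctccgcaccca
Zmays_tR62 and Sitalica_tR58, PheGAA: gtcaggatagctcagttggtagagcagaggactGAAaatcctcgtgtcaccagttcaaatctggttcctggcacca
Zmays_tR97 and Sitalica_tR85, ArgACG: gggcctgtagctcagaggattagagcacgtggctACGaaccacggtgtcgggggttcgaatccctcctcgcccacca
ArgTCT, which reads the arginine codons AGA and AGG, had 81291 reads in maize (0.410%) and 24337 in millet (0.355%), a ratio of 1.15. The family ratio was 2.48 with GlyGCC taken out of both totals and 0.925 with GlyGCC and GlnTTG taken out, so no direction is given. MetCAT, the methionine tRNA, had 47898 reads in maize (0.242%) and 17418 in millet (0.254%). Its family ratio of 0.950 turns to 2.04 when GlyGCC alone is taken out and to above 1 when ratios are divided by their median. With GlyGCC and GlnTTG taken out it is 0.762, so no direction is given for MetCAT. Maize also listed 3 nuclear-type MetCAT sequences with 8 reads in all.

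2 plastid-type tRNAs stood out on the maize side. ArgACG, which reads CGN arginine codons, had 292 reads in maize and 4 in millet for the shared sequence, a ratio of 25.2 with a counting interval of 9.74 to 93.2. Millet listed 16 further ArgACG reads of nuclear type, so the family ratio was 5.04 (3.21 to 8.38). PheGAA, the phenylalanine tRNA, had 772 reads in maize and 68 in millet, a ratio of 3.92 (3.06 to 5.10). Both stayed above 1 under every total tried, and both rest on fewer than 1000 reads.

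3 shared sequences were of the plastid-or-mitochondrial class, and the maize share was higher for each. AspGTC, which reads aspartate codons, was led by the molecule printed above, with 756072 reads in maize (3.81%) and 168263 in millet (2.46%), a ratio of 1.55. This AspGTC sequence was also listed in barley, wheat and A. thaliana. TrpCCA, the tryptophan tRNA, had 12199 reads in maize and 2177 in millet, a ratio of 1.94. AsnGTT, an asparagine tRNA, had 3865 reads in maize and 760 in millet, a ratio of 1.76. Without GlyGCC and GlnTTG in the totals the family ratios were 1.08 for AspGTC, 1.52 for TrpCCA and 1.41 for AsnGTT.

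CysGCA, the cysteine tRNA, was led by a plastid-type sequence with 4994 reads in maize and 2415 in millet. Its ratio of 0.714 is below 1 for the whole totals. The family ratio turns to 1.50 without GlyGCC and is 0.559 without GlyGCC and GlnTTG. Mitochondrial-type tRNAs were listed in maize only. Most of their reads came from a GluTTC tRNA with 999 reads, shown because it was identical to an A. thaliana mitochondrial tRNA (0 edits), with the anticodon in capitals.
Zmays_tR380, GluTTC: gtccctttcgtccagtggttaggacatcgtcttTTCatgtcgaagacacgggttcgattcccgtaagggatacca
It was listed with 3398 reads in A. thaliana and 3 in wheat. The millet GluTTC leader was a nuclear-type sequence with 337 reads instead. So the GluTTC family had 1063 reads in maize and 566 in millet, while its nuclear-type part had 64 reads in maize and 566 in millet. The other mitochondrial-type sequence was LysTTT with 8 reads.

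Nuclear-type tRNAs were mainly AspGTC and GluCTC in both species. AspGTC made 69.8% of nuclear-type reads in maize and 66.8% in millet, and GluCTC made 27.6% in maize and 24.7% in millet. These 2 families read codons of the acidic residues aspartate and glutamate. Their nuclear-type counts were similar although the maize library was deeper, with 39004 AspGTC reads in maize and 34723 in millet, and 15417 GluCTC reads in maize and 12820 in millet.

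Nuclear-type AspGTC was led by the same molecule in both species. It had 37957 reads in maize (0.191%) and 31400 in millet (0.458%), a ratio of 0.418, and made 97.3% of the nuclear-type AspGTC reads in maize and 90.4% in millet. As a share of nuclear-type reads it was 67.9% in maize and 60.4% in millet, so the direction turns with the total. The minor isodecoders differed. Millet had Sitalica_tR42 (T44C from the shared sequence) at 2184 reads, or 6.29% of the millet family, and Sitalica_tR33 at 1139 reads, or 3.28%. Maize had Zmays_tR179 at 1035 reads, or 2.65% of the maize family. Zmays_tR179 and Sitalica_tR33 both carry C27T and G43A, which replace the C-G pair at the outer end of the anticodon stem with a T-A pair, and both carry T44C. From Sitalica_tR33 to Zmays_tR179 there is 1 further difference, G20A.

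GluCTC, the tRNA of the glutamate codon GAG, had no sequence in common. Maize spread 15417 reads over 9 sequences, while millet put 12816 of 12820 reads, or 99.97%, on Sitalica_tR104. The maize leader Zmays_tR6 had 9638 reads, or 62.5% of the maize family (61.7 to 63.3). Zmays_tR316 followed with 2542 reads (16.5%), Zmays_tR297 with 1398 (9.07%) and Zmays_tR94 with 864 (5.60%). Zmays_tR178 had 555 reads (3.60%), Zmays_tR248 had 415 (2.69%), and the last 3 had 1 or 2 reads each. From the millet leader to the maize leader the differences were T21C, C28T and G44A. Positions 28 and 44 face each other at the outer end of the anticodon stem, so a C-G pair in millet stands as a T-A pair in the maize leader. Zmays_tR297, which differs from the millet leader only by T21C, keeps the C-G pair, so maize listed both forms of the stem. The family share was 0.0777% in maize and 0.187% in millet, a ratio of 0.415, while as a share of nuclear-type reads it was 27.6% in maize and 24.7% in millet, so the direction turns with the total.

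**Figure D2:**
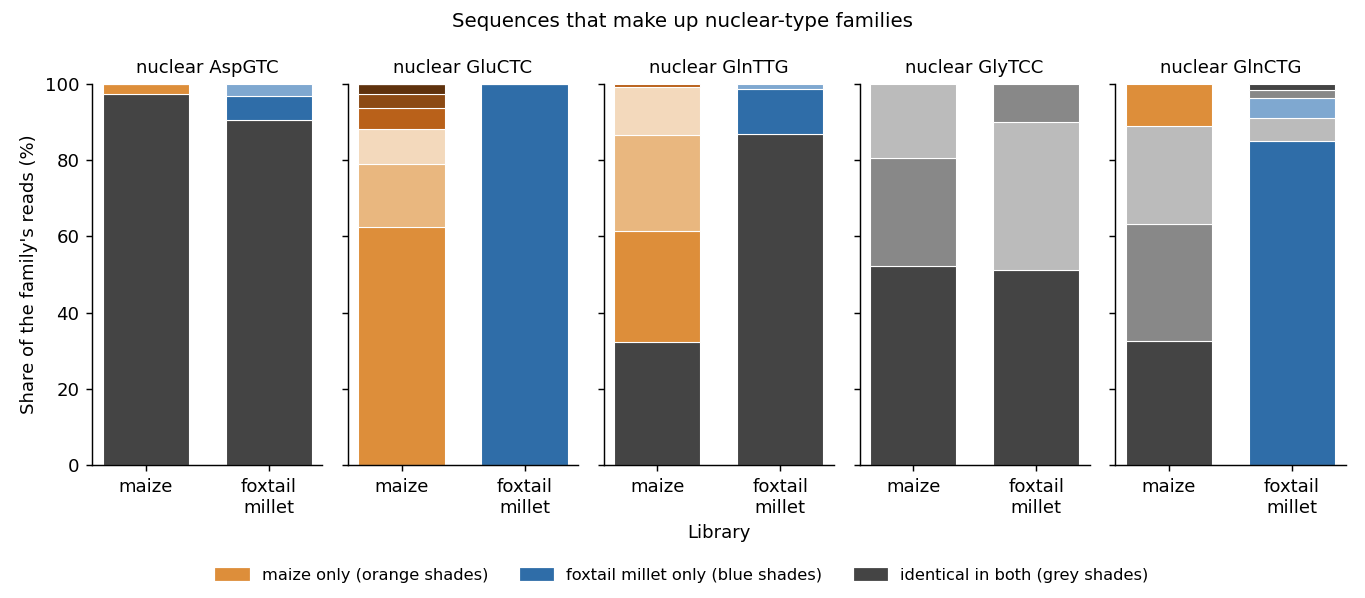
Make-up of 5 nuclear-type families in maize (left bar of each panel) and foxtail millet (right bar), as percent of the family's reads; grey shades are sequences identical in both species, orange shades maize only and blue shades millet only, with 1 block per sequence. GluCTC is 6 visible maize blocks led by 62.5% against a single millet block of 99.97%, and the 3 GlyTCC blocks are the same sequences in both.

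Changes on both sides of a base pair were seen in other families too. Over the species-only sequences that have the same length as their nearest sequence in the other species and differ from it by at most 5 substitutions, there were 43 pairs of sequences with 84 substitutions. Of the substitutions, 14 fell in the anticodon stem, 10 in the T stem, 8 in the acceptor stem, 23 in the D arm and its flanks, 11 in the T loop and 12 in introns. None fell in the 7-base anticodon loop itself, with intron bases counted apart. The sequences of each pair were of the same family, so the anticodon could not differ. Related entries repeat the same difference, so the substitutions are not independent. Zmays_tR6, Zmays_tR316, Zmays_tR178, Zmays_tR322 and Zmays_tR79 each add G44A against Sitalica_tR24, a millet GluCTC entry with 1 read. In 7 of the 43 pairs both bases of 1 stem pair differed and could pair in both sequences (A-T, G-C or G-T), for example C5T with G67A in the acceptor stem of GlnTTG (Sitalica_tR161 to Zmays_tR78) and C29T with G45A in the anticodon stem of GluTTC (Sitalica_tR77 to Zmays_tR85). The C28T with G44A change between the GluCTC leaders is not among the 7, since the millet entry nearest to Zmays_tR6 is Sitalica_tR24.

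Summed by family, nuclear-type glutamine tRNAs had lower shares in maize. Nuclear-type GlnTTG had 487 reads in maize (0.00246%) and 742 in millet (0.0108%). As a share of nuclear-type reads its ratio was 0.610. The gap was wider for the shared GlnTTG sequence alone, with 157 reads in maize and 645 in millet, a ratio of 0.0841. The shared sequence led the nuclear-type GlnTTG reads in both species, at 32.2% of 487 reads in maize and 86.9% of 742 reads in millet. The other maize reads lay mostly on Zmays_tR78 with 142 reads and Zmays_tR172 with 123. GlnCTG, which reads the glutamine codon CAG, had 98 reads in maize and 776 in millet, a ratio of 0.0436 (0.0350 to 0.0539). The millet reads came mostly from Sitalica_tR71, listed in millet only with 660 reads, or 85.1% of the family. The nearest maize sequence, Zmays_tR151, had 30 reads. The 2 are printed to show where they differ, with the anticodon in capitals in the first line and the differing bases, A9G and G46A, in capitals in the second.
Sitalica_tR71, GlnCTG: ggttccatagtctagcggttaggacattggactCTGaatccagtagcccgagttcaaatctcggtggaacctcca
Zmays_tR151 and Sitalica_tR148, GlnCTG: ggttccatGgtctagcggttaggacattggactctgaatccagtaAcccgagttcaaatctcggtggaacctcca
The 3 shared GlnCTG sequences had 25 to 32 reads each in maize and 12 to 46 in millet, so most of the GlnCTG reads of millet lay on an isodecoder that maize did not list. The ratios of these shared sequences were 0.188 (0.111 to 0.312), 0.576 (0.311 to 1.10) and 0.921 (0.462 to 1.96). As shares of nuclear-type reads the ratios were 0.505, 1.55 and 2.48, so no common direction is given for them.

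GlyTCC, the second glycine family by size and the one that reads GGA, was of nuclear type and used the same 3 sequences in both species. The first had 284 reads in maize and 638 in millet, the next had 106 in maize and 482 in millet, and the last had 155 in maize and 126 in millet. The family ratio was 0.151, but 0.325 without GlyGCC in the totals and 0.407 as a share of nuclear-type reads, so it is past 4-fold only in part of the totals tried. The middle sequence made 19.4% of the maize family and 38.7% of the millet family. ProCGG, a proline tRNA, had 63 reads in maize and 496 in millet, a ratio of 0.0439 (0.0332 to 0.0571). The nuclear-type GlyGCC sequence had 112 reads in maize and 208 in millet, a ratio of 0.186. A nuclear-type ProTGG had 24 reads in maize and 104 in millet, a ratio of 0.0797. As shares of nuclear-type reads these ratios were 0.501 for GlyGCC and 0.215 for ProTGG.

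Of the 18 families with at least 100 reads in either library, 1 was at least 4-fold higher in maize (ArgACG, 5.56% of the families tested) and 4 were at least 4-fold lower (GlnTTG, GlyTCC, GlnCTG and ProCGG, 22.2%), of which GlyTCC is no longer called without GlyGCC in the totals. Taken in any size, 8 were higher in maize (44.4%) and 10 lower (55.6%), and the median ratio was 0.823. That majority turns with the total, since without GlyGCC 11 were higher and 6 lower. Without GlyGCC and GlnTTG, 6 were higher and 10 lower. In 13 of the 18 the same sequence led in both species. The other 5 were GlnTTG, GluCTC, GlnCTG, GluTTC and ArgACG. The other 13 families lay within 4-fold. ThrTGT had 244 reads in maize and 305 in millet, and its ratio of 0.276 becomes 0.222, past 4-fold, without GlyGCC and GlnTTG. Among the rest were ThrGGT with 1114 reads in maize and 246 in millet, and ProTGG with 561 in maize and 349 in millet, whose ratio of 0.555 turns to 1.19 without GlyGCC. Most of the 18 families had a higher tRNA-seq value in maize than in millet, so that direction is not particular to the families called. Of those called lower, it was seen for GlnTTG (7.96% of maize, 1.94% of millet), GlnCTG (0.427%, 0.117%) and GlyTCC (0.536%, 0.327%). ProCGG (0%, 0.0468%) was lower in maize there too, and ArgACG (0.419%, 0.222%) higher.

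**Figure D3:**
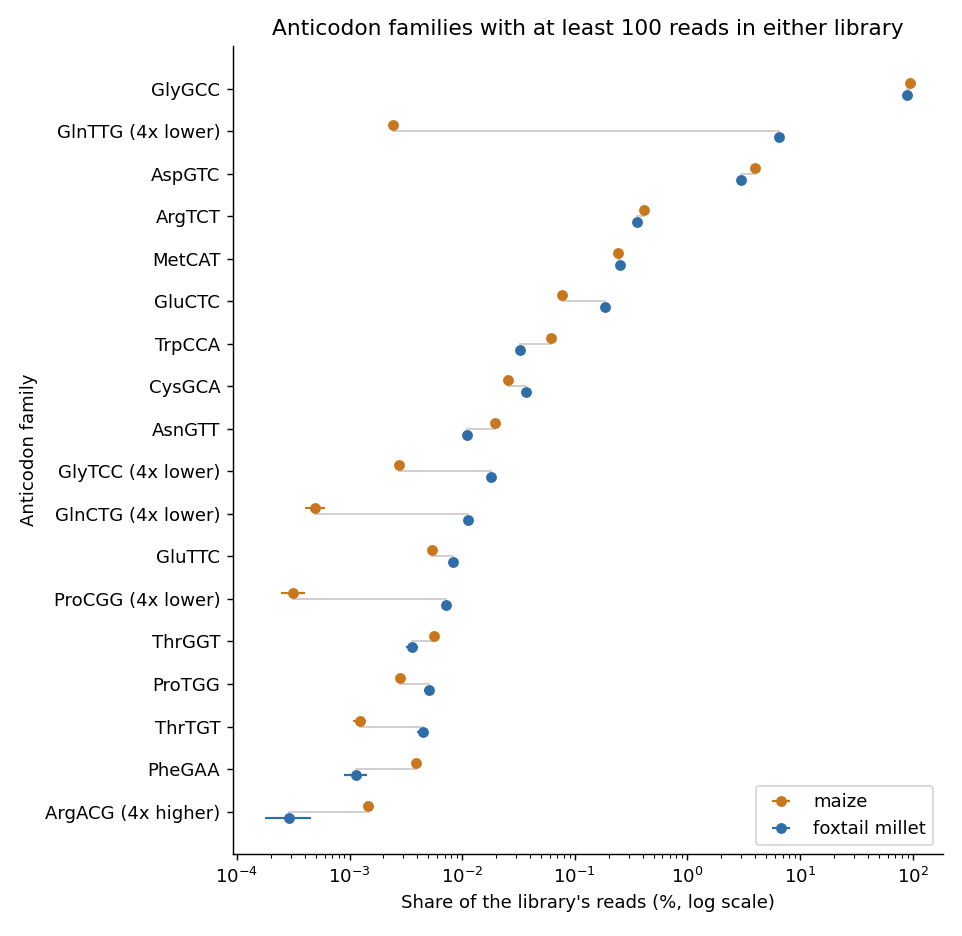
Share of the library's reads (percent, log scale) of the 18 anticodon families with at least 100 reads in either library, for maize (orange, upper point) and foxtail millet (blue, lower point), with exact 95% intervals of counting error. GlnTTG has the longest line, 0.00246% in maize and 6.57% in millet, and ArgACG is the family that is at least 4-fold higher in maize.

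Read sequence by sequence, 8 of the 29 shared molecules with at least 10 reads in either library had a higher share in maize (27.6%) and 21 a lower one (72.4%). Among the 22 with at least 100 reads in either library, 1 was at least 4-fold higher (4.55%) and 6 at least 4-fold lower (27.3%). The 6 were GlnTTG, a pair of GlyTCC sequences, ProCGG, nuclear-type GlyGCC and nuclear-type ProTGG. As shares of nuclear-type reads, nuclear-type GlyGCC (0.501) and the larger GlyTCC sequence (0.414) were within 4-fold, and the others stayed past it. All 15 shared nuclear-type sequences with at least 10 reads in either library were lower in maize by share of the whole library, with a median ratio of 0.134. That holds for the 8 of them with at least 100 reads in either library, with a median ratio of 0.119. Of the 13 shared plastid-type or plastid-or-mitochondrial sequences 8 were higher and 5 lower, with a median ratio of 1.15. Both sets depend in part on the total. With GlyGCC taken out, 2 nuclear-type sequences were higher and 12 lower, and 10 of the others were higher and 2 lower, with a median ratio of 2.91. With GlyGCC and GlnTTG taken out, 13 of 13 nuclear-type sequences were lower, and 6 of the others were higher and 6 lower, with a median ratio of 1.09. As a share of nuclear-type reads, 4 nuclear-type sequences were higher and 11 lower, with a median ratio of 0.360.

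**Figure D4:**
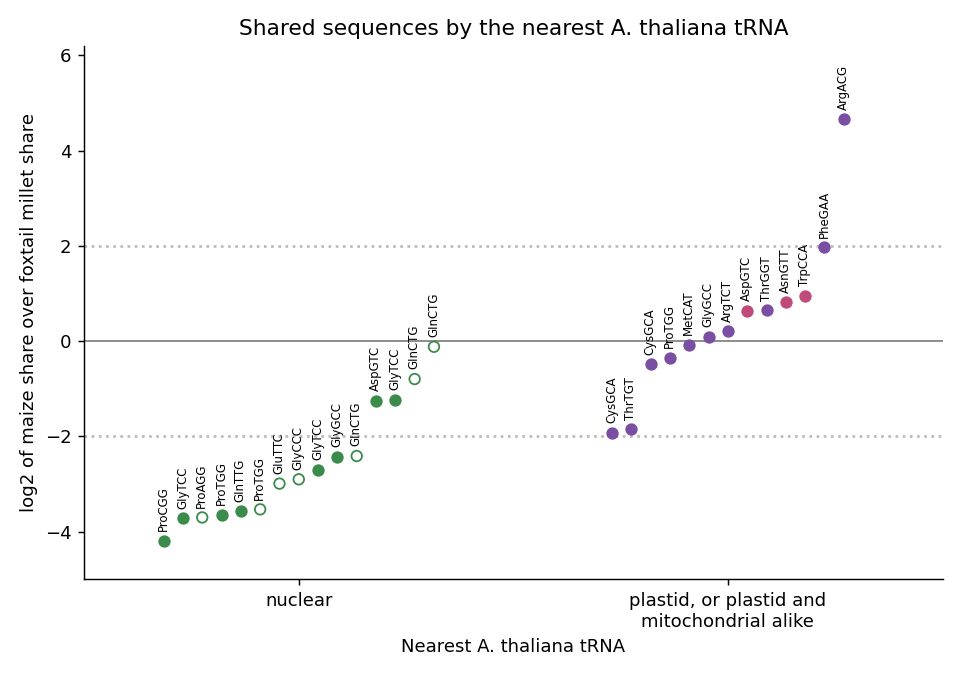
log2 of the maize share over the foxtail millet share for the shared sequences with at least 10 reads in either library, 15 nearest to a nuclear and 13 nearest to a plastid (purple) or plastid-or-mitochondrial (pink) A. thaliana tRNA, with 1 unassigned AspGTC sequence left out. Filled nuclear points have at least 100 reads in either library, dotted lines mark 4-fold, and the 15 nuclear points lie below 0 for shares of the whole library while ArgACG is the highest point.

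The order of the shared molecules was alike in the 2 species. Spearman's rho of the shares was 0.827 over the 31 sequences, 0.882 over the 17 nuclear-type and 0.901 over the 13 others. These values describe 2 libraries, each point being 1 sequence measured in both, and they share the dominance of a few molecules. Of the 31, 21 were also listed in barley or wheat and 6 in A. thaliana.

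The sequences of 1 species lay at different distances from the other. The 41 maize-only sequences were a median of 2 edits from the nearest millet sequence, with 13 at 1 edit and 34 within 5. The 49 millet-only sequences were a median of 19 edits from the nearest maize sequence, with 10 at 1 edit, 23 within 5 and 26 beyond. Of the millet-only sequences 16 belonged to families with no listed maize sequence, against 2 maize-only sequences in families with no listed millet sequence. 3 of the maize-only sequences and 11 of the millet-only ones were also listed in barley or wheat.

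Leucine and serine tRNAs, which have a long variable arm, were part of this difference. Maize listed 0 of them, which allows a share of up to 1.51e-05%, again only for sequences among the reference tRNAs. Millet listed 9, between 84 and 91 bases long, with 123 reads or 0.00180% of the library, and 64 of these reads were on 1 plastid-type SerGCT sequence. The tRNA-seq values did not show this absence in maize. SerGCT was 25.1% of maize and 16.9% of millet tRNA-seq, LeuCAA 2.19% and 1.39%, and SerTGA 1.41% and 0.888%. SerAGA was 0.184% and 0.0701%, while LeuCAG (0.184% and 0.281%) and SerCGA (0.184% and 0.935%) were lower in maize. Tyrosine tRNAs were rare and different in both YAMAT-seq libraries. Each of the 4 maize TyrGTA entries and the 7 millet ones still held an intron, of 12 to 13 bases in maize and 12 to 15 in millet. They had 9 reads in maize and 41 in millet, none was shared, and the spliced form that all 11 would give was listed in neither species. The entry with the most reads in each species is printed with the intron in capitals, since the bodies are identical and the species differ within the intron.
Zmays_tR87, TyrGTA: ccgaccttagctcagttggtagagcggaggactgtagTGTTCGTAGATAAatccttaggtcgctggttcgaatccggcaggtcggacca
Sitalica_tR69, TyrGTA: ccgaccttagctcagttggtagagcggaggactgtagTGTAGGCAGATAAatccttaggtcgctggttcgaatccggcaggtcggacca
With 3 reads for the maize entry and 17 for the millet one, no difference in level between the species is read from them.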

How the data were processed

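The maize and foxtail millet YAMAT-seq files hold counts of reads per tRNA sequence, deposited by the authors as raw numbers with the CCA end included, per the file headers. The tRNA-seq percent values were computed by the authors per anticodon, per the file headers. The submitters' processing notes name cutadapt and TAIR10. The aligner, the reference tRNAs of each species and the handling of multiply matching reads were not given in the sources used here. Per the labels' protocols, amplification took 12 PCR cycles and used no molecular identifiers that the labels name, so intervals cover counting error only. Ligation, modified bases that stop reverse transcription and PCR can each favour some tRNAs.

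Sequences were matched as identical strings with Python 3.11.15 (numpy 2.4.6, scipy 1.17.1). The anticodon was read from the 7-base loop closed by the best stem of 5 pairs, with an intron of 10 to 25 bases tried, and matched the name in 143 of 143 A. thaliana entries. The rule was completed after the files were read, with these names in view. The nearest A. thaliana tRNA of the TAIR10.1 annotation, or of listed sequences found in that genome, was the one with the fewest edits (edlib 1.3.9.post1); a class was given up to 16 edits where the next class was at least 5 further, limits taken from earlier work on these data. Acceptor, anticodon and T stems were placed by counting from the 3′ end and the anticodon loop.

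No test was run, since each species has 1 library; differences were called at 4-fold among families or shared sequences with at least 100 reads in either library. Named were shared sequences with at least 0.1% in either library, the 5 largest species-only sequences of each, the 10 largest families and all those called; others, such as PheGAA, the TyrGTA entries, LysTTT and the isodecoders below the fifth, were named after their values were seen. Steps were tested on simulated data. Members and lists were chosen with earlier results of these data known.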

Additional observations from a re-analysis of the deposited data

How the results depend on the processing

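No paired analysis was possible because each species has 1 library, and no replicate could be left out. The number of shared sequences was 26 with at least 10 reads in each library, 44 when 1 edit was allowed and 30.0 expected at the millet depth, against 31. With at least 10 reads required in the own library, 18 sequences passed in maize only and 28 in millet only, against 41 and 49. These include shared sequences that were under 10 reads in 1 of the libraries, such as ArgACG with 292 reads in maize and 4 in millet. Allowing 1 edit put 99.9% of maize reads and 93.4% of millet reads in shared sequences (99.9256 and 93.4256). Without GlyGCC these shares were 98.1% in maize and 34.9% in millet, where GlnTTG made 62.7% of the millet rest, and without GlyGCC and GlnTTG they were 98.2% in maize and 93.4% (93.3759) in millet. Families at least 4-fold higher in maize numbered 3 without GlyGCC (ArgACG, PheGAA and TrpCCA), 0 with at least 1000 reads, 2 at a 2-fold limit and 2 after division by the median ratio, against 1. Families at least 4-fold lower numbered 2 with at least 1000 reads, against 4; they were 3 without GlyGCC, where GlyTCC is lost, and 4 without GlyGCC and GlnTTG, where ThrTGT is called at 0.222. Taking out GlyGCC multiplied every remaining ratio by 2.15, so CysGCA, GluTTC, MetCAT and ProTGG passed from below 1 to above 1, and no family passed the other way. A simpler anticodon rule gave 6 lower families, but matched only 110 of the 143 A. thaliana names. The alternatives without GlyGCC and GlnTTG, with the median ratio and with the depth made equal were chosen after seeing the data. Depth limits the low families: 3 reads are 1.51e-05% of the maize library and 4.38e-05% of the millet library.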
